A study of Mus musculus with 27 samples.

Results

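The levels of 10 genes for transcription factors that establish or keep B-lymphocyte identity were followed through resting B cells, activated B cells and B-cell lymphomas of mice. They were Pax5, Ebf1, Tcf3, Bach2, Spib, Spi1, Irf8, Ikzf1, Ikzf3 and Pou2f2. The genes were picked by name as known regulators of the B lineage, out of 30735 genes in the deposited expression table. A gene's level was the sum of its annotated transcripts in TPM, a relative abundance of transcripts within a library that takes transcript length into account.

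B-lymphocyte fate is set in steps. E2A, the product of Tcf3, and EBF1 open the B-cell programme in progenitors, and PAX5 then holds it in place by activating B-cell genes and repressing genes of other lineages. PU.1 (Spi1), its relative SPI-B (Spib) and IRF8 bind DNA alone or as ETS-IRF pairs at many B-cell genes, Ikaros (Ikzf1) and Aiolos (Ikzf3) act largely as chromatin-bound repressors, OCT2 (Pou2f2) binds octamer sequences such as those of immunoglobulin promoters, and BACH2 holds back the plasma cell programme that PAX5 also opposes.

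RNA came from cells purified by B220, a surface antigen of B cells, in 27 samples. The resting group held 4 samples of untreated splenic B cells from healthy mice, 1 each labelled wt, cr, co and hv. The LPS group held 4 samples of the same genotypes after 2 days with lipopolysaccharide, a bacterial component that makes B cells divide and start antibody secretion. The third group held 19 B-cell lymphomas, 7 labelled hv, 7 cr and 4 co, and 1 lung tumour, T39, whose title says hv and whose description says CO. All lymphomas and the 3 cr, co and hv samples of the resting and LPS groups came from c-myc Igh transgenic mice, whereas the wt samples are not described as transgenic. The lymphomas lay in lung (12), mesenteric lymph node (4, all cr) or peripheral lymph node (3). The labels give no strain or age, do not say what hv, cr and co stand for, and do not say whether samples came from separate mice, so the tests below speak only of differences between samples, which may be technical. With 1 sample per genotype, the controls give no replicate of any single genotype.

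All 10 B-cell markers checked, among them Cd79a and Ms4a1, were present in all 3 groups. Their summed level was 7351 to 13550 TPM in resting samples, 2565 to 4428 TPM after LPS and 2632 to 10620 TPM in lymphomas. The resting samples also held other cells. Macrophage markers summed to 181.9 to 1063 TPM there, against 5.69 to 57.1 TPM after LPS and 12.5 to 317 TPM in lymphomas, and haemoglobin genes took 1.15 to 11% of TPM against at most 0.22%. The repeat-derived gene Gm10800 took over 1% of TPM in the resting wt (3.65%), LPS cr (18.6%) and LPS hv (2.70%) samples and in the mesenteric cr lymphoma T6 (3.08%), and the 3 comparisons between resting, LPS and lymphoma samples were also run without them. Another such gene, Gm20594, took 10.9 to 34.3% of TPM across all samples. The implied depth was 11531400 to 32032600 read pairs, and the fewest read pairs behind a level of any of the 10 genes in any sample was 293, for Spi1.

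In resting cells, Irf8, Ikzf1 and Ikzf3 had the highest median levels, at 176, 175 and 174 TPM, and their ranges overlapped. Pax5, Spib, Bach2 and Ebf1 followed at medians of 132, 130.3, 124.5 and 119.6 TPM, again with overlapping ranges. Tcf3 and Spi1 lay at 56.2 and 51.8 TPM and overlapped, and Pou2f2 was lowest at 22.4 TPM, below every other gene in every resting sample. The order differed after LPS, where Bach2 was the lowest of the 10 by its median of 19.1 TPM and Ikzf1 the highest at 156.5 TPM; Bach2, Pou2f2, Spi1 and Ebf1 (28.1 TPM) overlapped there. In lymphomas, Ikzf1 had the highest median at 179 TPM, Spib and Tcf3 came next at 123 and 118 TPM with overlapping ranges, and Pou2f2 was lowest at 12.4 TPM.

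**Figure D1:**
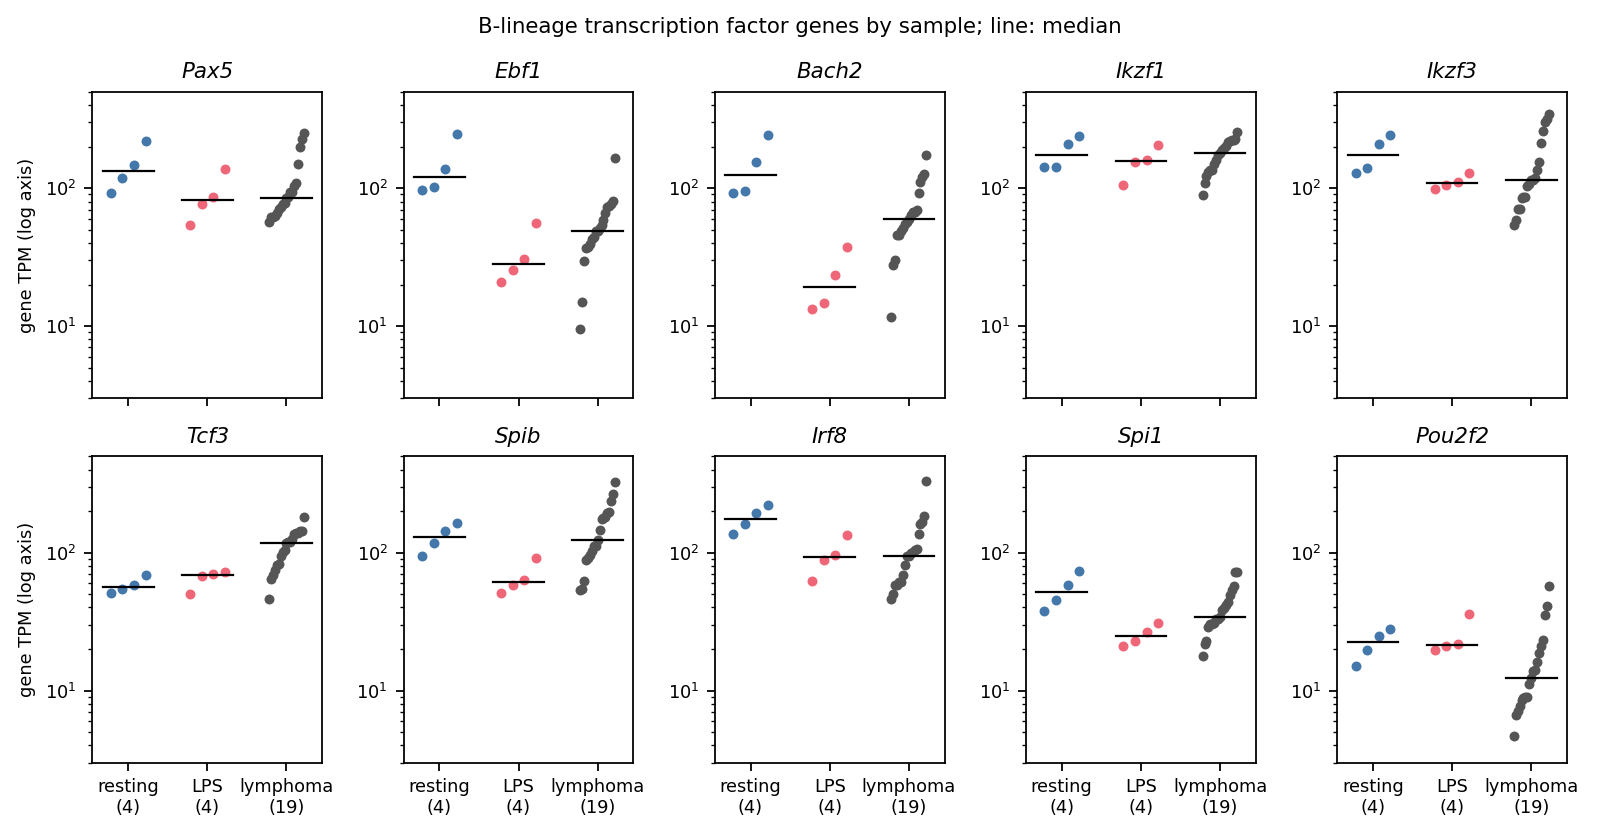
Gene level in TPM on a log axis for the 10 transcription factor genes, 1 point per sample in the 4 resting, 4 LPS and 19 lymphoma samples, with the group median as a line. Bach2 and Ebf1 are lower in all LPS samples than in any resting sample, and Tcf3 is above the resting range in 16 of the 19 lymphomas.

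LPS treatment for 2 days was compared with the resting state first. The labels name no sample kept for 2 days without LPS, so LPS and time in culture cannot be told apart. Of the 10 genes, 6 fell, none rose and 4 did not pass an adjusted p of 0.05 (limma on log2(TPM + 1), Benjamini-Hochberg over 11999 genes). Bach2 and Ebf1 had the largest differences, at -2.66 and -2.09, and the ETS and IRF genes Spi1, Spib and Irf8 and the Ikaros family gene Ikzf3 fell by 1.03 to 0.65 on the log2 scale. This count stands against a large background, since 58.2% of all genes passed, 33% lower and 25.2% higher, and 9 of the 10 B-cell markers fell. The 10 genes had a median difference of -0.81 on the log2 scale, and all genes tested had one of -0.16. Scaling by the median of ratios moved the median of all genes from -0.16 to -0.03. Rescaling without Gm10800, Gm20594 and haemoglobin genes moved it to -0.30. The size of each difference thus depends on the scaling, in either direction: Bach2 was -2.52 with the former and -2.81 with the latter. In bulk samples such as these, fewer cells of a type and less RNA per cell cannot be told apart.

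Bach2 encodes a repressor that delays plasma cell differentiation. Its level was 242, 91.8, 154 and 95.2 TPM in the resting wt, cr, co and hv samples and 37.7, 13.2, 14.6 and 23.6 TPM after LPS. Every LPS sample lay below every resting sample. The difference was -2.66 ± 0.40 (log2, SE, n = 4 and 4; limma adjusted p = 0.000399), and it was lower in all 4 genotypes, by -1.97 in hv to -3.31 in co. Most of the Bach2 TPM sat on short transcripts annotated as non-coding. Counting only protein-coding transcripts, Bach2 had 26.03 ± 12.3 TPM in resting samples and 8.5 ± 4.70 TPM after LPS (SD, n = 4 each), a difference of -1.53 (limma adjusted p = 0.00849).

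The protein-coding transcripts of Bach2 differed in their behaviour. Bach2-201 and Bach2-202 start at far upstream exons, and Bach2-207 starts at chr4:32417435, the first base of the third exon of the other 2 (GRCm38, + strand). Bach2-207 held 1.30 to 8.04% of the coding Bach2 TPM in the resting samples, 33.1 to 55.8% after LPS, and up to 29.7% in the lymphomas, so that the LPS samples did not overlap either other group. The sum of Bach2-201 and Bach2-202 went from 24.6 ± 11.2 TPM in resting samples to 4.75 ± 2.81 TPM after LPS (SD, n = 4 each) without overlap, whereas Bach2-207 had 0.350 to 3.45 TPM and 1.96 to 6.58 TPM, which overlap. In the lymphomas Bach2-207 reached 5.85 TPM, but 7 tumours, 6 of them from lymph nodes, had at most 0.0517 TPM. These shares rest on how kallisto divided reads among transcripts with common exons, and no test was run on them.

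The 250 bases before this internal start are printed because they are a RefSeq promoter window of Bach2, at the start of the coding transcript whose share of coding Bach2 was higher in every LPS sample than in any other (GRCm38.p6, + strand, 5′ to 3′). They lie at chr4:32417185-32417434, hold no annotated exon, and the capitals mark an ETS-IRF composite match (GGAA, any 2 bases, then GAAA) read on the opposite strand, the kind of site that PU.1 or SPI-B with IRF8 or IRF4 can bind.
Bach2 internal promoter: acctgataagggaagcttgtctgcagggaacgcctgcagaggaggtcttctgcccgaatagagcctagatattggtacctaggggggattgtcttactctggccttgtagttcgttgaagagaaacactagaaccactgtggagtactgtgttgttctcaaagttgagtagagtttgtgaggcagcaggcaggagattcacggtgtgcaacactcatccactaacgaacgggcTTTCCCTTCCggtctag
The match begins 17 bases before the start. Searched on both strands over windows from 250 bases before to 50 after a start, this motif occurred in 2.72% of 32851 windows and in 2 of 11 windows of 8 of these genes, those of Bach2 and Pou2f2. The octamer ATGCAAAT (1.74% of all windows), the PU.1 motif GAGGAAGT (3.2%) and the EBF1 motif (TCCC, any 2 bases, then GGGA; 0.904%) were in none of the 11, and the E2A E-box CAGGTG (20.2%) was in 1, that of Irf8. The PU.1 motif holds the GGAA of the composite, so these 2 can overlap. Such matches are a description of letters, not of binding.

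**Figure D2:**
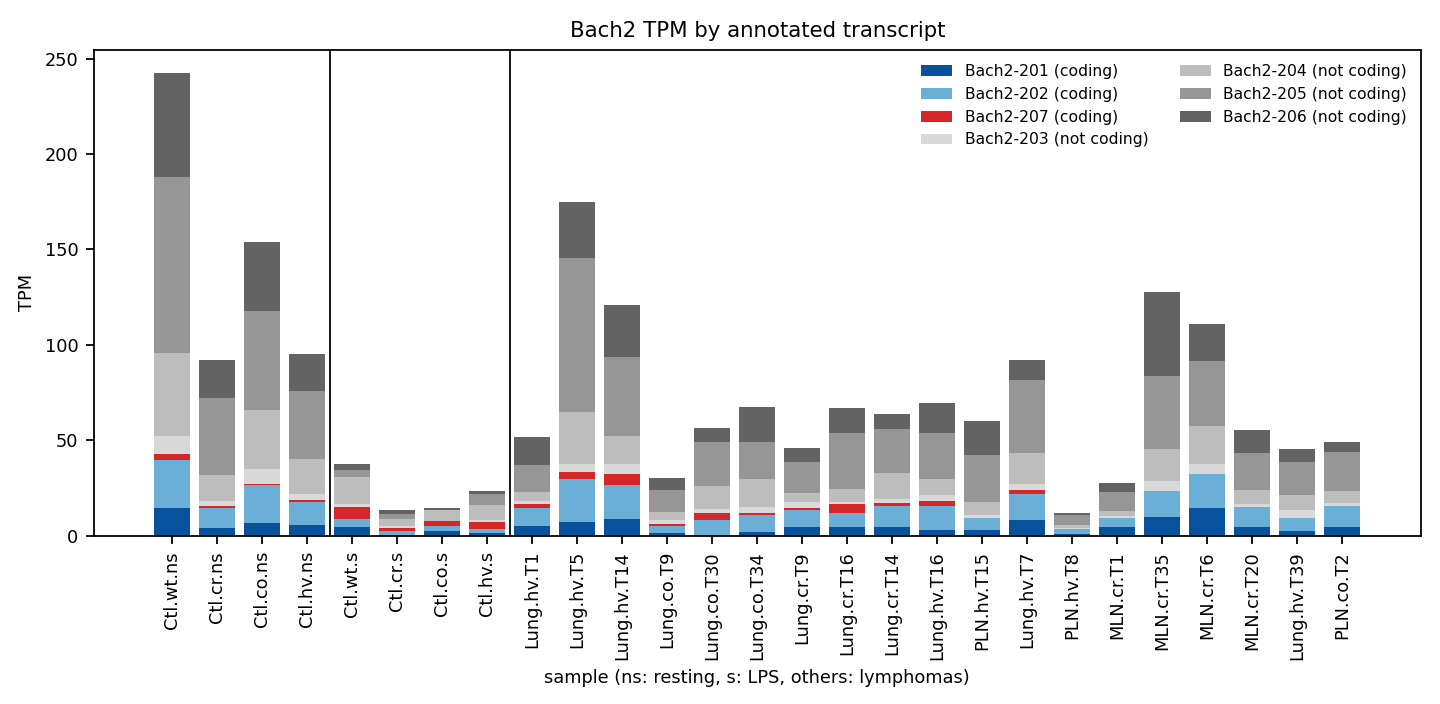
Bach2 TPM in each of the 27 samples, stacked by annotated transcript, with protein-coding transcripts in blue and red and non-coding ones in grey; vertical lines part resting, LPS and lymphoma samples. Grey takes most of each resting bar, and red (Bach2-207) takes 14.8 to 17.5% of each LPS bar against at most 1.42% of a resting one.

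Among the factors that specify the lineage, Ebf1 changed most. Its level was 248, 103, 137 and 96.3 TPM in the resting wt, cr, co and hv samples and 55.7, 20.75, 25.65 and 30.6 TPM after LPS. No LPS sample reached the lowest resting one. The difference was -2.09 ± 0.36 (log2, SE, n = 4 and 4; limma adjusted p = 0.000799), and on coding transcripts alone -1.45 (limma adjusted p = 0.007).

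Pax5, the gene that commits cells to the lineage, had 218, 118, 147 and 92.0 TPM in the resting wt, cr, co and hv samples and 139, 53.9, 76.5 and 86.85 TPM after LPS. All 4 genotypes were lower after LPS, but the hv pair by only -0.08, and the groups overlapped. The difference of -0.69 (95% interval -1.40 to 0.01; limma adjusted p = 0.0838) missed the threshold, and it passed in 6 of 19 alternative analyses. Tcf3, which encodes the E proteins E12 and E47, had 50.8 to 68.7 TPM before and 50.5 to 72.3 TPM after LPS, 0.16 higher with an interval of -0.23 to 0.55.

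The ETS factor genes Spi1 and Spib and their partner Irf8 fell to a similar degree. Spi1 had 58.6, 73.4, 45.04 and 37.6 TPM in the resting wt, cr, co and hv samples and 31.0, 22.9, 20.9 and 26.5 TPM after LPS, a difference of -1.03 ± 0.22 (log2, SE; limma adjusted p = 0.0016). Spib had 165, 117, 144 and 94.3 TPM and then 90.8, 50.7, 63.4 and 58.1 TPM, a difference of -0.98 ± 0.23 (limma adjusted p = 0.00253). Irf8 had 220.3, 192, 160.2 and 136 TPM and then 133.5, 61.8, 96.4 and 88.25 TPM, a difference of -0.92 ± 0.24 (limma adjusted p = 0.0051). For each of these genes the LPS samples lay wholly below the resting ones, as they did for 29.5% of all genes tested. Macrophages also use Spi1 and Irf8, and macrophage markers moved the same way: 9 of 11 tested fell and none rose, and their sums in the resting wt, cr, co and hv samples were 181.9, 1063, 335 and 899 TPM. The resting cr sample was highest for Spi1, hv was lowest for Spi1 and Irf8, and wt was highest for Irf8. At rest, hv was also the lowest sample for 9 of the 10 genes, and wt the highest for 7. Dendritic cell markers (7 of 9 tested) and neutrophil markers (2 of 2) also fell, and none rose. Neutrophil markers summed to 14.66, 75.73, 628.4 and 379.7 TPM in the resting wt, cr, co and hv samples, and to at most 15.4 TPM after LPS. Dendritic cell markers summed to 31.64, 120.6, 30.27 and 33.38 TPM at rest and to 19.15 to 43.79 TPM after LPS. The part of macrophages, dendritic cells and neutrophils in the Spi1, Spib and Irf8 differences was not tested. Without the libraries high in Gm10800, Irf8 no longer passed (-0.50, limma adjusted p = 0.0763), and with 1 fit across all 27 samples neither Irf8 (adjusted p = 0.109) nor Spib (adjusted p = 0.0942) did.

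Of the Ikaros family, Ikzf3 fell and Ikzf1 did not pass the test. Ikzf3 had 242, 139, 209 and 129.7 TPM in the resting wt, cr, co and hv samples and 128, 98.3, 105 and 112 TPM after LPS. The groups were parted only by the narrow gap between the resting hv and the LPS wt sample. The difference was -0.65 ± 0.22 (log2, SE; limma adjusted p = 0.021), and it passed in 13 of 19 alternative analyses. Leaving out the resting wt, the resting co or the LPS co sample each raised its limma adjusted p above the threshold, to 0.0649 at most; without the Gm10800 libraries the difference was -0.42 (adjusted p = 0.15), and with 1 fit across all samples the adjusted p was 0.325. Ikzf1 differed by -0.23, with a 95% interval of -0.75 to 0.29.

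Pou2f2, which encodes OCT2, stood at 25.05, 19.7, 28.0 and 15.02 TPM in the resting wt, cr, co and hv samples and at 35.7, 21.0, 19.75 and 21.9 TPM after LPS. It was higher after LPS in 3 genotypes and lower in co. The difference of 0.15 (95% interval -0.35 to 0.66) did not pass, and it turned to -0.03 without the LPS wt sample. In each state the samples also kept a common order across genes. The wt sample was highest for 7 of the 10 genes at rest and for 9 after LPS, and the hv sample was lowest for 9 at rest. The cr sample, the one with 18.6% of its TPM in Gm10800, was lowest for 8 after LPS. The size factors, by which median-of-ratios scaling divides each library, had the same extremes. They were highest in wt (1.264 at rest, 1.097 after LPS), and lowest in hv at rest (0.9367) and in cr after LPS (0.8772). The order may thus belong to the libraries, and a link with genotype was not tested.

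Genes known to depend on these factors were counted beside them. Some genes belong to several lists, so the counts of different lists are not independent of each other. Of 20 tested genes that PAX5 or EBF1 activate, 14 fell after LPS and 1, Id3, rose, with a median of -1.37 against -0.16 for all genes. Cd79a, the signalling chain of the B-cell receptor, went from 506 to 193 TPM (-1.33, limma adjusted p = 0.000386), and Cr2, a complement receptor of mature B cells, from 525 to 65.8 TPM (-3.24, limma adjusted p = 0.0025). Of 8 tested genes that PAX5 represses, 4 rose and 2 fell, Prdm1 and Xbp1 among those that rose. Of 11 B-cell target genes of PU.1 and SPI-B, 7 fell and none rose, among them Ciita, the master activator of MHC class II genes (-2.08, limma adjusted p = 5.03e-06). Of 7 target genes of OCT2 and its coactivator OBF1, 4 fell, including the inhibitory receptor gene Btla (-1.90, limma adjusted p = 0.000332).

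The plasma cell regulators went the other way after LPS: 5 of 8 rose and none fell. Prdm1 and Xbp1 are in this count and also in that of the PAX5-repressed genes that rose. Prdm1, which encodes the repressor BLIMP1, went from 2.11 to 13.7 TPM (2.27 ± 0.29, limma adjusted p = 5.31e-05), and Xbp1, a driver of secretory capacity, from 47.6 to 110.3 TPM (1.18 ± 0.18, limma adjusted p = 0.00014). Irf4 differed by 0.15 and did not pass. Of 8 genes that BACH2 is known to repress, 2 rose and 3 fell. Among those that fell was the haem oxygenase gene Hmox1 (-2.41, limma adjusted p = 0.0252), which macrophages also express and which moved with their markers. Of 21 partner and related transcription factor genes, 12 fell and 2 rose, with Runx1 at -1.72 (limma adjusted p = 7.2e-05) and Myb at 1.19 (limma adjusted p = 0.00148).

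**Figure D3:**
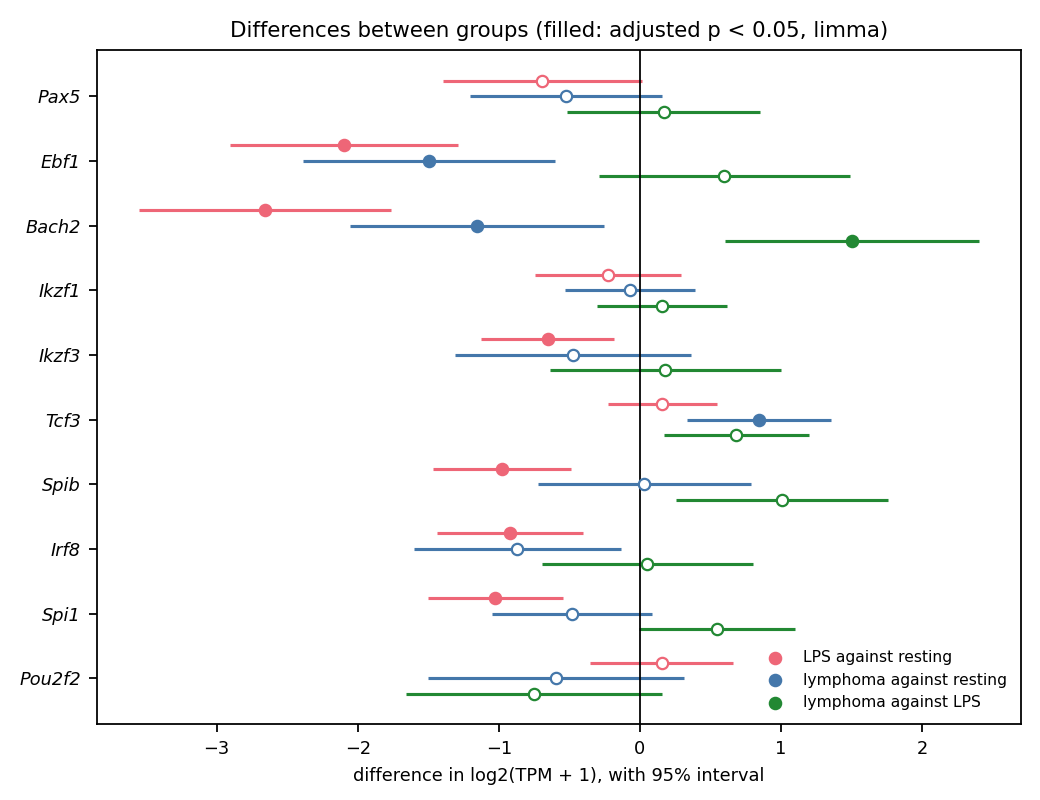
Difference in log2(TPM + 1) with its 95% interval for the 10 genes in the 3 comparisons, with filled points where the limma adjusted p was under 0.05. Bach2 and Ebf1 reach the lowest values, -2.66 and -2.09, for LPS against resting, and Tcf3 is the only gene filled to the right of 0 for lymphoma against resting.

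Lymphomas were compared with resting cells next. All resting and LPS samples came from spleen and no lymphoma did. Malignancy and tissue of origin therefore cannot be told apart in any comparison of lymphomas with these groups. Tcf3 was higher, Ebf1 and Bach2 were lower, and the other 7 genes did not pass the test (limma, 13239 genes tested). Here 31.9% of all genes passed, 14.5% higher and 17.4% lower, so that 3 of 10 is near the background. The 10 genes had a median difference of -0.50, against -0.06 for all genes. The lymphomas share the 4 resting samples with the LPS comparison, so the directions of the 2 comparisons are not independent of each other.

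Tcf3 had 46.2 TPM in its lowest, 118 in its median and 179.7 TPM in its highest lymphoma, against 58.1, 54.3, 68.7 and 50.8 TPM in the resting wt, cr, co and hv samples. It lay above the resting range in 16 of 19 lymphomas and below it in 1, the peripheral node hv tumour T15. The difference was 0.84 ± 0.25 (log2, SE, n = 19 and 4; limma adjusted p = 0.0112), and it passed in 17 of 18 alternative analyses. The sample names come in 2 forms, with the parts joined (9 lymphomas, all from lung) or separated (10), and what this marks is not stated. The 7 tumours with at most 0.0517 TPM of Bach2-207 all had separated names, which was not tested further. Within the joined names Tcf3 differed by 1.08 (limma adjusted p = 0.00107), and within the separated names by 0.63 (limma adjusted p = 0.0733), where it did not pass.

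Ebf1 ranged from 9.49 TPM through a median of 49.1 to 164 TPM in lymphomas, against 248, 103, 137 and 96.3 TPM in the resting wt, cr, co and hv samples. 18 of 19 lymphomas lay below the lowest resting sample, and the hv lung tumour T14 lay inside the resting range. The difference was -1.496 ± 0.434 (log2, SE, n = 19 and 4; limma adjusted p = 0.0103). It depended on the resting wt sample, the highest: without it the difference was -1.21 (limma adjusted p = 0.0792). It did not pass without the libraries high in Gm10800 (-1.19, adjusted p = 0.0915) or in lymphomas with joined names (-1.197, adjusted p = 0.0904), and it was -1.77 with separated names (adjusted p = 0.000903).

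Bach2 ranged from 11.6 TPM through a median of 59.9 to 175 TPM in lymphomas, against 91.8 to 242 TPM at rest. It lay below the resting range in 14 of 19 lymphomas and within it in 5. The difference of -1.16 ± 0.44 (log2, SE; limma adjusted p = 0.0448) lay at the edge of the threshold and passed in 6 of 18 alternative analyses. It passed in none of the 4 that left out 1 resting sample (adjusted p 0.0529 to 0.215, highest without wt), and on coding transcripts it was -0.68 (limma adjusted p = 0.192). By joined and separated names it was -1.01 and -1.29, and neither passed.

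The other 7 genes differed from resting cells by amounts whose spread leaves both small and sizeable changes possible. Irf8, which was 46.0 to 328 TPM in lymphomas with a median of 94.6, was nearest to the threshold at -0.87 (95% interval -1.60 to -0.13; limma adjusted p = 0.0641), with 14 lymphomas below the resting range and 1 above. It passed in 2 of 18 alternative analyses: with separated names only (-1.13, limma adjusted p = 0.0154, against -0.58 and 0.226 with joined names), and once Gm10800, Gm20594 and haemoglobin genes were taken out of the total (-1.01, limma adjusted p = 0.0254). Pax5 had 56.4 to 252 TPM with a median of 84.65, and differed by -0.53 (interval -1.21 to 0.16). Pou2f2 differed by -0.60 (interval -1.50 to 0.31), Spi1 by -0.48 (interval -1.05 to 0.09) and Ikzf3 by -0.47 (interval -1.31 to 0.36). Spib, at 0.03 (interval -0.72 to 0.79), and Ikzf1, at -0.07 (interval -0.53 to 0.39), were the nearest to 0, and both took either sign among the alternatives.

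The lists around these genes were described in the same way. Of 20 tested genes activated by PAX5 or EBF1, 8 fell and none rose, with a median of -0.78 against -0.06 for all genes. The largest falls were in Cr2 (from 525 to 5.90 TPM, -6.89, limma adjusted p = 3.03e-08) and Fcer2a, which encodes the low-affinity IgE receptor CD23 (from 120.3 to 9.40 TPM, -5.45, limma adjusted p = 3.31e-05). The chemokine receptor gene Cxcr5 (-2.94) and the costimulatory receptor gene Cd40 (-2.70) also fell, whereas Cd79a, a direct target of PAX5 and EBF1, differed by -0.59 and did not pass. Of 9 tested genes that PAX5 represses, 3 fell, namely Csf1r (-3.79), Jchain (-2.73) and Flt3 (-1.77), and none rose. Csf1r and Flt3 are also among the macrophage and dendritic cell markers, of which 10 of 12 and 6 of 10 fell, and the part of those cells was not tested.

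Among 21 partner and related transcription factor genes, 9 fell and 1 rose. The one that rose was Myb, a regulator of progenitor proliferation, from 4.84 ± 2.24 TPM (SD, n = 4) to 55.8 ± 33.4 TPM (SD, n = 19), a difference of 2.79 ± 0.83 (limma adjusted p = 0.012). Bcl6, the germinal centre repressor, was at 10.6 TPM in resting cells and 1.43 TPM in lymphomas (-2.30, limma adjusted p = 2.43e-05), and Runx1 (-1.41) and Mef2c (-1.34) also fell. Of 4 tested genes of the E-protein axis, 1 fell and none rose: Id2, an inhibitor of E proteins such as those of Tcf3, went from 50.9 to 8.31 TPM (-2.58 ± 0.51, limma adjusted p = 0.000383). Id2 is also used by NK, dendritic and myeloid cells, its resting level was uneven (SD 33.7 TPM, n = 4), and 6 of 7 NK, 10 of 12 macrophage and 6 of 10 dendritic cell markers fell too; their part was not tested. Id3, the inhibitor better known in B cells, differed by 0.50 (limma adjusted p = 0.172).

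Of 11 target genes of PU.1 and SPI-B, 4 fell (Fcer2a, Bcl6, Grap2 at -2.29 and Ciita at -1.30), and of 7 targets of OCT2 and OBF1, 4 fell (Cd36 at -2.99, Cxcr5, Crisp3 at -2.58 and Btla at -1.41). In both lists none rose. Of 7 tested genes repressed by BACH2, 4 fell and none rose. These were Hmox1 (from 89.2 to 4.30 TPM, -4.03, limma adjusted p = 1.54e-06), Gclm (-1.40), Ftl1 (-1.28) and Fth1 (-1.02), the last 3 serving glutathione synthesis and iron storage. Macrophage markers (10 of 12) and erythroid markers (10 of 10, median -7.68) fell in the same comparison, and their part in these differences was not tested. Of 8 plasma cell regulators 2 fell and none rose. Jchain (limma adjusted p = 0.0439) and Irf4 (-0.88, limma adjusted p = 0.0443) fell, both at the edge of the threshold. The resting level of Irf4 was uneven, with a mean of 112.9 TPM and an SD of 78.49 TPM (n = 4). Prdm1 differed by -0.17 (limma adjusted p = 0.809).

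Lymphomas were then compared directly with LPS-treated cells, which is the test of whether the 2 groups differ from each other. Here too, malignancy and tissue of origin go together. Of 12880 genes, 13.8% passed, 5.27% higher and 8.56% lower in lymphomas. Bach2 was higher in lymphomas and the other 9 genes did not pass. Bach2 had a median of 59.9 TPM in lymphomas against 13.2 to 37.7 TPM after LPS, and 16 of 19 lymphomas lay above the LPS range, 1 below. The difference was 1.503 ± 0.435 (log2, SE, n = 19 and 4; limma adjusted p = 0.0223). On coding transcripts it was 0.85 (adjusted p = 0.147), and without LPS cr, co or hv it did not pass, with limma adjusted p up to 0.11. Without all libraries high in Gm10800 it was 1.26 (adjusted p = 0.305). Within the joined names it was 1.65 (adjusted p = 0.00961), and within the separated names 1.37 (adjusted p = 0.0872).

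Spib and Tcf3 came next, at 1.01 (95% interval 0.25 to 1.76; limma adjusted p = 0.0668) and 0.68 (interval 0.17 to 1.20; limma adjusted p = 0.0672). Spib lay above the LPS range in 15 lymphomas and Tcf3 in 16. Spib passed in 5 of 18 alternative analyses and Tcf3 in 3. In lung lymphomas alone both passed, Spib at 1.14 (limma adjusted p = 0.0264) and Tcf3 at 0.80 (limma adjusted p = 0.022). Neither passed with separated names (limma adjusted p = 0.162 and 0.241) or without the libraries high in Gm10800 (limma adjusted p = 0.492 and 0.412). Ebf1, at 0.60 (interval -0.29 to 1.49), was not told apart from LPS-treated cells. Of the plasma cell regulators 5 of 8 were lower in lymphomas and none higher. Of the genes repressed by PAX5 4 of 8 were lower and none higher. Prdm1 and Xbp1 are in both lists and were lower, so these counts overlap.

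Several of these genes carried non-coding or incomplete transcripts that a sum of TPM weights heavily, since TPM divides by length. The coding share of Bach2 had a median of 17.6% at rest, 36.0% after LPS and 26.2% in lymphomas, with Bach2-205, of only 336 bases, holding 37.8% at rest. The coding share of Ebf1 was 39.1%, 58.6% and 51.3%. In both genes transcripts not annotated as coding held a larger share at rest than after LPS. For Spib and Ikzf1 all annotated transcripts were coding. Those of Ikzf1 under 1000 bases still held a median of 48.7% at rest, 36.6% after LPS and 36.3% in lymphomas. For Tcf3 the median coding share was 93.7 to 96.0% in the 3 groups.

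Transcript make-up also differed in the Ikaros family, in Ikzf1, whose total did not pass the test, and in Ikzf3, which fell after LPS. Ikzf1-202, a coding transcript with 6 exons, held 20.46 to 25.3% of Ikzf1 at rest and 6.83 to 11.3% after LPS, without overlap, and 7.38 to 21.3% in lymphomas. Ikzf1-203, with 9 exons, held a median of 13.9% at rest, 16.5% after LPS and 23.7% in lymphomas, and every lymphoma (17.9 to 39.6%) was above the highest resting sample (17.5%). In Ikzf3, the retained-intron transcript Ikzf3-203 went from 4.48 to 5.01% at rest to 1.11 to 1.65% after LPS, and the non-coding Ikzf3-204 from 17.1 to 17.7% to 26.1 to 33.8%. These shares are estimates from reads that transcripts have in common, given as a description. The transcripts named are a few of 81, and how many others shifted as much was not counted. Ikzf1-202 has only 911 bases. Transcripts under 1000 bases had a lower median share after LPS than at rest in all these genes but Ikzf3 and Spib. In Ebf1 it went from 40.1 to 21.3% and in Pax5 from 18.7 to 10.5%. In Ikzf3 it rose from 33.7 to 38.9%, and Spib has no such transcript.

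The 19 lymphomas differed among themselves more for some of these genes than for others. The coefficient of variation was largest for Pou2f2 (79.9%, 4.69 to 57.2 TPM) and smallest for Ikzf1 (26.6%, 89.9 to 257 TPM), with Tcf3 next at 31.2%. Ikzf3 had 53.8 TPM in its lowest, 114 TPM in its median and 345 TPM in its highest lymphoma. The 5 tumours with most Ikzf3 were the co lung tumours T30 (301 TPM) and T34 (317 TPM), the hv lung tumour T16 (261 TPM), the peripheral node hv tumour T15 (213 TPM) and T39 (345 TPM), followed after a gap by the hv lung tumour T14 (154 TPM). All 7 cr lymphomas had at most 114.7 TPM of Ikzf3 and at most 14.1 TPM of Pou2f2. These limits are not particular to cr: the co lung tumour T9 had 53.8 and 8.59 TPM. For hv against cr, Ikzf3 differed by 0.67 and Pou2f2 by 0.69, and neither passed (limma adjusted p = 0.981 for each).

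**Figure D4:**
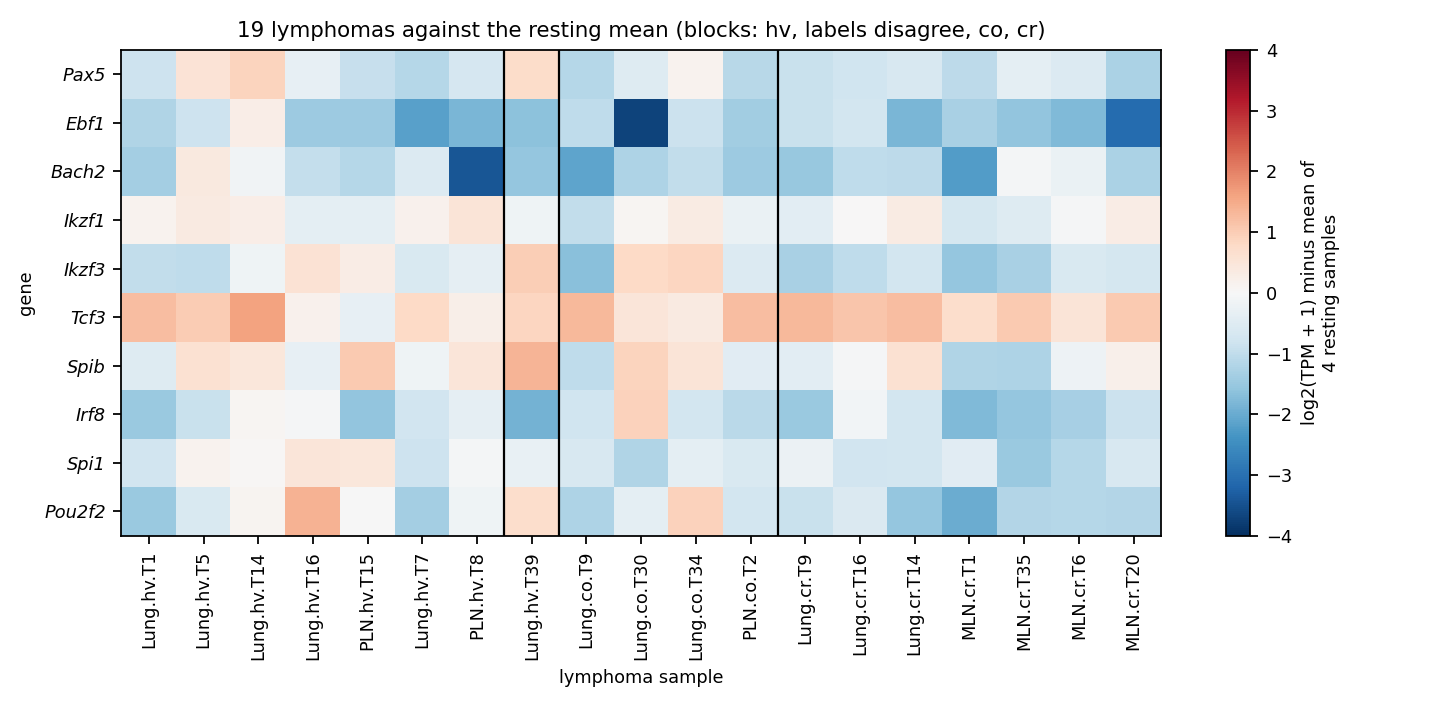
Level of each gene in each lymphoma as log2(TPM + 1) minus the mean of the 4 resting samples, red above and blue below, with columns grouped as hv, the tumour T39 whose labels disagree, co and cr. The Tcf3 row is mostly red and the Ebf1 row mostly blue, and the strongest blue cells are Ebf1 in the co lung tumour T30 (9.49 TPM) and Bach2 in the peripheral node hv tumour T8 (11.6 TPM).

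Single tumours held the extremes of several genes. The co lung tumour T30 had the lowest Ebf1 (9.49 TPM) and the highest Irf8 (328 TPM) of all lymphomas, with Pax5 at 94.4 TPM. The peripheral node hv tumour T8 had the lowest Bach2 (11.6 TPM) and the highest Ikzf1 (257 TPM). The hv lung tumour T14 had the highest Pax5 (252 TPM), Ebf1 (164 TPM) and Tcf3 (179.7 TPM). For Tcf3 this depended on the scaling. The size factor of T14 was 1.28, against 0.8417 in the co lung tumour T9 and 0.8782 in the cr lung tumour T9. These tumours had 144.1 and 144.5 TPM of Tcf3 and pass T14 once levels are divided by the factors.

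Pairs of these genes were compared across the 19 lymphomas, 45 pairs in all, on log2(TPM + 1). After Benjamini-Hochberg adjustment 2 pairs passed by Pearson's r with a two-sided permutation test. Ikzf3 and Pou2f2 were positively correlated, with r = 0.82 (permutation p = 2e-05, adjusted 0.0009) and rho = 0.76 (permutation p = 0.00022, adjusted 0.0099). Without the 2 tumours farthest from the median of Ikzf3, r was 0.73, and it was 0.74 in the joined and 0.91 in the separated names. Ikzf3 and Spib had r = 0.73 (permutation p = 0.00039, adjusted 0.0088) and rho = 0.66 (permutation p = 0.0027, adjusted 0.061), with r = 0.67 without the 2 farthest tumours, 0.74 in joined and 0.80 in separated names. Ikzf3 and Tcf3 went opposite ways, with r = -0.55 and rho = -0.54, but did not pass (permutation p = 0.014 and 0.017, adjusted 0.10 and 0.12).

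Marker levels of other cells were read beside this pattern. T cells also express Ikzf3. The tumours T39, co T34 and co T30 had T-cell marker sums of 228, 182 and 129.6 TPM, above the lymphoma median of 26.8. The hv lung tumour T16 had 58.2 TPM and the peripheral node tumour T15 had 18.7 TPM. Of the T-cell markers tested, Cd3g and Lck had the highest lymphoma means, 16.8 and 15.3 TPM, and the next, Cd5, had 4.15 TPM. Such sums do not by themselves show T cells. Macrophage markers summed to 317 TPM in the hv lung tumour T16, which was highest for Spi1 (72.8 TPM) and Pou2f2 (57.2 TPM). The co lung tumour T9, next in macrophage markers at 244 TPM, had 32.7 TPM of Spi1 and 8.59 TPM of Pou2f2, both below the lymphoma medians. The part of T cells and macrophages in these levels was not tested. TPM shares the total of each library, so levels of genes within a tumour are not free of one another. Under median-of-ratios scaling r was 0.74 for Ikzf3 with Pou2f2, 0.60 with Spib and -0.72 with Tcf3.

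**Figure D5:**
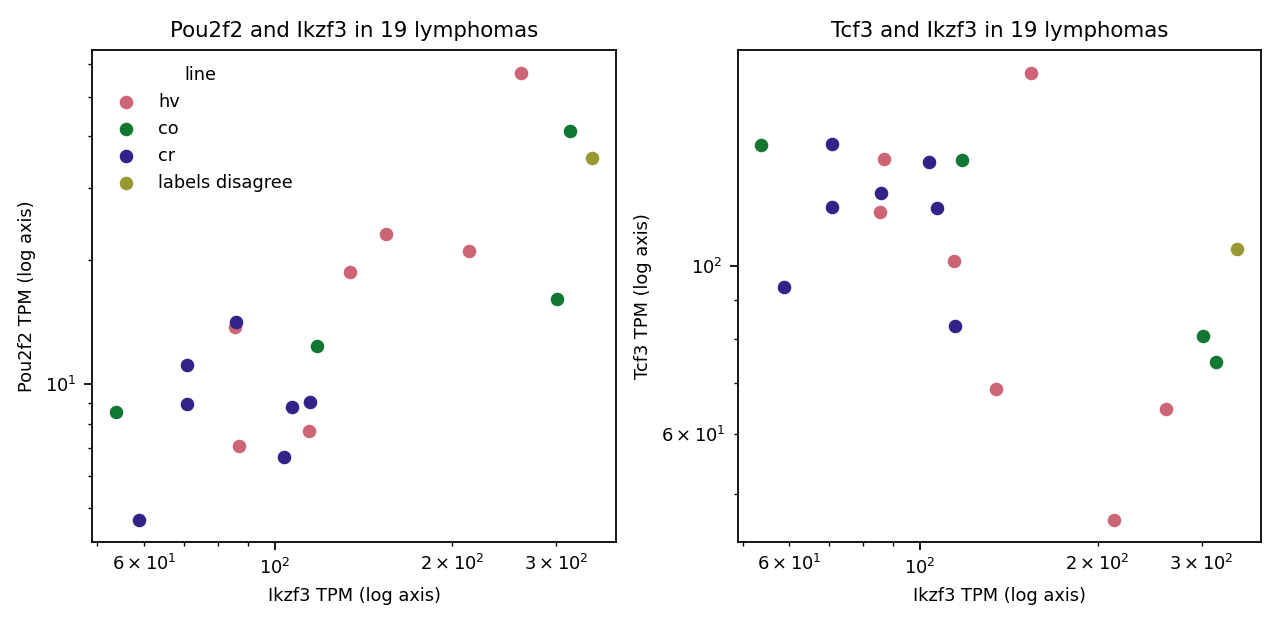
Ikzf3 against Pou2f2 (left) and against Tcf3 (right) in the 19 lymphomas, TPM on log axes, coloured by line, 1 point per tumour. Pou2f2 rises with Ikzf3 (r = 0.82), and the tumours with most Ikzf3 have Tcf3 at or below 105.2 TPM. The 7 cr tumours have at most 114.7 TPM of Ikzf3 and 14.1 TPM of Pou2f2, and tumours of other lines also lie under both limits.

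Lines and sites of the lymphomas were compared in 1 limma model with both terms, on the 18 tumours with undisputed labels. None of the 10 genes passed in any of the 5 comparisons (12480 genes tested), and hardly any gene did: 0% of genes for hv against cr, co against cr, co against hv and mesenteric node against lung, and 0.016% for peripheral node against lung. At an unadjusted p under 0.05 the counts of all genes were 170, 337, 393, 209 and 628, and 1 of the 10 genes was among them for co against hv and 1 for peripheral node against lung. These were Spi1, lower in co by 0.62 on the log2 scale (difference -0.62 ± 0.28, SE, limma p = 0.04, adjusted 1), and Bach2, at -1.16 ± 0.54 in peripheral nodes (limma p = 0.046, adjusted 0.952). By line, Spi1 had 52.0 ± 17.7 TPM in hv (SD, n = 7), 32 ± 7.34 TPM in co (SD, n = 4) and 31.0 ± 8.70 TPM in cr (SD, n = 7). Ikzf3 had 150.0 ± 66.0, 197 ± 132 and 87.4 ± 21.4 TPM in the same order, and the difference of co from cr was 0.85 ± 0.54 (limma adjusted p = 0.998). Mesenteric node tumours were all cr, and none of the 9 tumours with joined names came from a node, so site, line and name style are only partly told apart.

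For each gene the 2 genes most like it across the 19 lymphomas were found by Spearman's rho among 8626 genes. The closest were Serpinc1 (0.946) and Cyp11a1 (0.912) for Ikzf3, Bcl3 (0.912) and Nabp1 (0.898) for Pou2f2, and Elmo2 (0.904) and Chid1 (0.898) for Spib. Pax5 had Gcc2 (0.90) and Foxj3 (0.858), Spi1 had Pgs1 (0.865) and Ehbp1l1 (0.837), and Tcf3 had Fancm (0.858) and Fam53b (0.839). Ikzf1 had Dcaf4 (0.851) and Snf8 (0.844), Bach2 had Clcn6 (0.83) and Tbc1d1 (0.825), Ebf1 had Arhgap35 (0.83) and Eps8 (0.809), and Irf8 had Tma7 (0.825) and Taco1 (0.798). None of the 20 was itself one of the 10 genes. These are the highest of many values, over samples that share library and depth effects, and no test was attached to them.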

How the data were processed

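Ribosome-depleted total RNA was made into stranded paired-end libraries, per the labels' protocols. The submitters' processing notes name FastQC, kallisto 0.43 and mm10 (GRCm38). The annotation and strand setting are not stated in the sources, and reads of overlapping or antisense genes may therefore be divided between them. The table deposited by the authors held TPM for 88198 Ensembl transcripts. Summing them gave 30735 genes, 29995 of which matched a symbol by Ensembl identifier. Transcript types came from GENCODE M21 (GRCm38), and promoter windows from RefSeq (GRCm38.p6), matched by symbol for 8 of the 10 genes.

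A gene entered a test when its TPM reached 1 in 4 or more of the samples fitted. Tests used log2(TPM + 1), which understates changes of low genes, and limma 3.58.1 (trend, robust) in R 4.3.3, with Benjamini-Hochberg adjustment over all genes and a threshold of 0.05. Each of the 3 comparisons of groups was fitted on its own samples, and lines and sites on 18 lymphomas. Correlations used 100000 permutations. Read pairs were implied from TPM times effective length. Of their low values 60.7 to 75.6% came out whole within 0.02. They served for depth and for an added alternative, and cover counting error only. Tests were tried on simulated data. Other tools were matplotlib 3.10.9, scipy 1.17.1, numpy 2.4.6, pandas 2.3.3 and Python 3.11.15.

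The 10 genes, the target and marker lists and the comparisons were chosen with earlier results of these data known. List genes were named where they were among the 4 with the largest change in lymphoma against resting of those that passed, and reached a mean of 5 TPM in the higher group. Cd79a, Prdm1, Xbp1, Id3 and the values of list genes after LPS were added once their values had been seen. Alternatives were other scalings, filters, pseudocounts, fits and subsets, leaving out single samples, and genotype as a replicate block. Restricting to coding transcripts and using reads per sequenced total were added after seeing the data.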

Additional observations from a re-analysis of the deposited data

Results flagged for a closer look

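Among 50 groups of 4 or 7 samples (each of the 10 genes in resting, LPS, hv, cr and co samples), 4 held 1 sample far from the others by Dixon's criterion, where chance gives about 1 in 20. Ebf1 was 164.3 TPM in the hv lung lymphoma T14, where the next hv lymphoma had 76.2 TPM. Irf8 was 327.9 TPM in the co lung lymphoma T30, where the next co lymphoma had 104.7 TPM. Pou2f2 was 57.18 TPM in the hv lung lymphoma T16, where the next hv lymphoma had 23.2 TPM, and 35.69 TPM in the LPS wt sample, where the next LPS sample had 21.9 TPM.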

How the results depend on the processing

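Of 595 values of the 10 genes under alternatives, 523 kept their direction and their side of the threshold. Those that turned sign had not passed the test. For LPS against resting, Ikzf1 was 0.138 without the libraries high in Gm10800, and Pou2f2 was -0.033 to 0.279 leaving out 1 sample in turn. For lymphoma against LPS, without the Gm10800 libraries Ikzf1 was -0.071, Irf8 -0.228 and Pax5 -0.122, and leaving out 1 sample gave -0.017 to 0.30, -0.134 to 0.233 and -0.041 to 0.408. Irf8 was also -0.206 with separated names and -0.079 on coding transcripts. For lymphoma against resting, Ikzf1 was 0.048 by median of ratios, 0.067 without the Gm10800 libraries, 0.069 without wt, 0.012 with joined names, 0.127 in reads per total and -0.18 to 0.069 leaving out 1 sample. Spib was -0.111 after rescaling without Gm10800, Gm20594 and haemoglobin genes, -0.052 with separated names, -0.042 without T39 and -0.112 to 0.155 leaving out 1 sample. The causes were not tested.

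Of the 10 genes, those lower after LPS numbered 3 with 1 fit on all samples. Those lower in lymphoma against resting numbered 1 with no filter, without T39, on coding transcripts or in reads per total, 0 without the Gm10800 libraries, without wt or with joined names, and 0 to 1 leaving out 1 sample; those higher numbered 0 with separated names. Those higher in lymphoma against LPS numbered 2 by median of ratios, 3 with 1 fit, in lung or with joined names, 0 without the Gm10800 libraries, with separated names or on coding transcripts, and 0 to 1 leaving out 1 sample.

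Over all genes, those lower after LPS numbered 2453 with 1 fit and 2460 without the Gm10800 libraries. Lymphoma against resting gave 1234 higher with separated names, and lower 3494 with no filter, 1349 without the Gm10800 libraries, 1389 without wt and 1389 to 1838 leaving out 1 sample. Lymphoma against LPS gave 93 higher without the Gm10800 libraries, 1033 with joined and 405 with separated names and 301 to 455 leaving out 1 sample, and lower 1915 with no filter, 340 without the Gm10800 libraries, 648 without wt and 510 to 1067 leaving out 1 sample. Among lines, co against cr gave 0 to 1 in each direction leaving out 1 sample, and co against hv 0 to 1 higher, with 1 lower under no filter. Peripheral node against lung gave higher 1 with a pseudocount of 0.1, 5 with no filter, 0 with name style as a term and 0 to 10 leaving out 1 sample, and lower 1 with a pseudocount of 0.1 and 0 to 2 leaving out 1 sample. The share of called genes that were higher in lymphoma than in resting cells was 45.4%, and 31.9% after rescaling or 33.1% with no filter; for LPS against resting it was 43.3%, and 55.5% without the Gm10800 libraries.

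Rescaling moved the median of all genes to -0.30 for LPS against resting and to -0.20 for lymphoma against resting. With genotype as a replicate block, Pax5 passed after LPS (-0.69, limma adjusted p = 0.00565), which made 7 of the 10 genes lower and 7250 genes called against 6981. Deviations of the same genotype correlated at 0.058 in wt, 0.063 in hv, 0.222 in cr and 0.34 in co, so the samples were not treated as pairs.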
